A study of Mus musculus with 19 samples.

Results

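Astrocytes are the glial cells that take up glutamate and potassium around synapses, couple to one another through gap junctions, and wrap blood vessels with endfeet. Fabp7, the brain fatty acid binding protein, is a lipid chaperone of astrocytes and neural progenitors, so the question was whether genes that mark astrocytes change when it is lost. Described here are 10 genes used as astrocyte identity markers: Gfap, Aqp4, Slc1a2, Slc1a3, Glul, Gja1, Gjb6, Aldh1l1, S100b and Sox9. They were listed by name as markers, with no threshold on their values but with earlier results of these data known, and all 10 were present among the 24394 gene symbols shared by the deposited tables.

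RNA-seq was performed on a brain block from 1 hemisphere that held hippocampus and cortex, with 1 library per mouse and 19 libraries in all. The groups were 5 Fabp7-knockout mice at the maximal electroshock seizure threshold (KO MEST), 4 sham-handled knockout mice (KO sham), 5 wild-type mice at the threshold (WT MEST) and 5 sham-handled wild-type mice (WT sham). MEST mice received 1 ear-clip shock a day, starting at 20 mA and raised by 2 mA daily, and tissue was taken once both hind limbs were tonically extended. The number of shocks and the final current of each mouse are not given in the sources used here. A difference in them between KO MEST and WT MEST mice cannot be told apart from genotype. Sham mice were handled without shock. All mice were male C57BL/6NJ, and the labels give ZT20, in the dark phase, as the time for every sample. For the sham mice, the study's methods give a younger age and call the tissue cortical, and the sample labels were followed here. By the labels, age was 18.9 to 19.4 weeks in KO MEST, 17.3 to 17.9 in KO sham, 17.4 to 18.0 in WT MEST and 15.9 to 16.3 in WT sham mice. Age differences therefore cannot be told apart from the differences between KO MEST and WT MEST, KO sham and WT sham, WT MEST and WT sham, or KO MEST and KO sham mice. The labels name the mice as Fabp7 knockouts without naming a cell type for the deletion, and a block of mixed tissue does not separate fewer astrocytes from less RNA per astrocyte.

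Reads assigned to genes ranged from 34.4 to 51.7 M per library in KO MEST (median 37.0 M), 34.3 to 46.3 M in KO sham (median 39.5 M), 30.3 to 38.5 M in WT MEST (median 32.6 M) and 27.6 to 32.3 M in WT sham mice (median 29.9 M). Levels are given as counts per M reads in genes (CPM), scaled by a TMM factor, and as means ± SD over mice. Fabp7 itself had 0 to 4 reads in KO MEST and 2 to 8 reads in KO sham libraries, against 427 to 544 in WT MEST and 301 to 475 in WT sham libraries, so every library fitted its genotype label. The first principal component of all genes, with 16.6% of the variance, placed the WT sham libraries at −30.8 to −20.4 and the 14 other libraries at 1.64 to 14.2. Any comparison with WT sham mice rests on that group, which was also the youngest and had the lowest median depth. The tissue held RNA of many cell types. The 10 astrocyte genes summed to 6012 to 7125 CPM per library, against 6681 to 9388 CPM for 13 oligodendrocyte markers, 4447 to 5620 CPM for 12 excitatory neuron markers and 437 to 529 CPM for 12 microglia markers over the same 19 libraries.

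All 10 genes were well above the detection limit, from 928 reads for Sox9 in the lowest library upward. Divided by exonic length, their mean levels over the 19 libraries were ordered as Glul (549 CPM per kb), Slc1a2 (231), S100b (107), Slc1a3 (81.4), Gfap (53.9), Aqp4 (27.7), Gja1 (26.0), Gjb6 (23.1), Aldh1l1 (13.4) and Sox9 (8.26). Glul and Slc1a2, which make glutamine and clear glutamate, thus gave far more RNA per length than the transcription factor Sox9. Exonic length joined all annotated exons of a gene, so the order of genes with closer levels depends on the annotation. It was 10257 bases for Gja1 and 8537 for Slc1a3, against 3889 and 4435 for their longest transcripts. For S100b and Sox9 both lengths were the same. The range of the 4 group means was widest for Gfap (0.95 on the log2 scale) and Sox9 (0.66). For the 8 others it was 0.14 to 0.30. Ranking the 4 groups by mean CPM, only 2 pairs of neighbours had ranges that did not overlap among all 10 genes, namely Gfap in WT MEST above WT sham and Sox9 in WT sham above WT MEST.

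**Figure D1:**
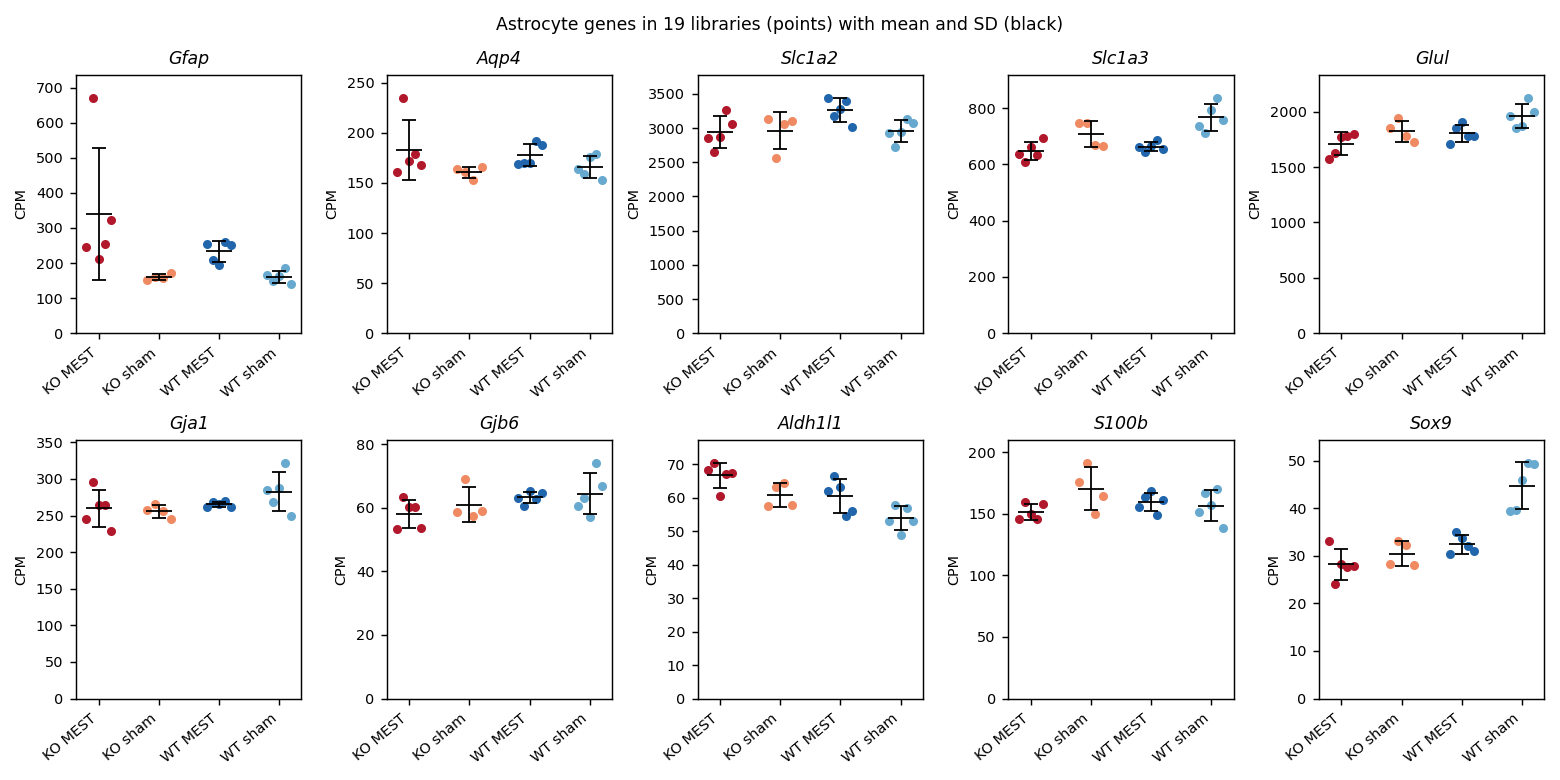
CPM of each of the 10 astrocyte genes (y axis, from 0) in the 4 groups (x axis). Each point is 1 mouse and the black bars are mean ± SD. Sox9 was 39.5 to 49.4 CPM in WT sham mice and 24.1 to 35.1 CPM in the 3 other groups, and 1 KO MEST mouse had 670 CPM of Gfap.

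Sox9 is a transcription factor of the SOX family that is needed for the astrocyte fate and stays on in adult astrocytes (chr11:112782224-112787760 on the plus strand, GRCm38 with GENCODE vM21). Its level was 28.3, 33.0, 32.3 and 28.1 CPM in the KO sham mice, against 39.5, 39.7, 45.9, 49.4 and 49.3 CPM in the WT sham mice. Every KO sham mouse lay below every WT sham mouse. In KO MEST mice it was 33.1, 24.1, 28.4, 27.7 and 27.8 CPM, against 30.3, 35.1, 33.8, 32.0 and 31.1 CPM in WT MEST mice, and those groups overlapped. WT sham mice were thus the group that stood apart, with a mean of 44.8 ± 4.93 CPM.

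Glial fibrillary acidic protein, encoded by Gfap, is the intermediate filament that astrocytes increase when they become reactive (chr11:102887336-102900912, minus strand). Gfap was 245, 670, 212, 254 and 322 CPM in KO MEST mice, against 151, 160, 158 and 172 CPM in KO sham mice. It was 254, 209, 194, 260 and 253 CPM in WT MEST mice, against 166, 148, 162, 187 and 141 CPM in WT sham mice. Every MEST mouse was above every sham mouse of either genotype. The sham groups had nearly the same mean, 161 ± 8.70 CPM in KO and 161 ± 17.8 CPM in WT.

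In sham mice, the loss of Fabp7 went with a lower level of 1 of the 10 astrocyte genes. Sox9 fell by 0.55 on the log2 scale in KO sham relative to WT sham mice (SE 0.09, 95% interval −0.73 to −0.37, a ratio of 0.682), with an adjusted p of 0.000467 by limma with Benjamini-Hochberg adjustment over all genes. The other 9 genes did not pass. Across the whole table, 15.4% of the 16182 genes tested passed in this comparison (8.18% higher, 7.18% lower), so 1 of 10 is a share near the background. Groups that did not overlap were seen for 1 of the 10 genes, Sox9, and for 16.8% of all genes. The median log2 fold change was −0.06 over the 10 genes and −0.02 over all genes tested. P-values here set the difference of group means against the spread between the mice of these groups, which limma estimates with help from all genes tested. Sox9 kept its call under all 21 alternative settings and left-out libraries, with log2 fold changes of −0.60 to −0.51 and adjusted p-values from 2.29e-07 to 0.00277.

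For the 9 genes that did not pass, the 95% intervals of the log2 fold change lay between −0.28 and 0.31. Each interval is for 1 gene, without adjustment for the number of genes. It describes the difference between KO sham and WT sham mice, in which genotype and age are not separated. Gfap differed by 0.00 (−0.15 to 0.16) and the glutamate transporter gene Slc1a2 by 0.00 (−0.13 to 0.13). Aqp4, the water channel of astrocyte endfeet encoded on chromosome 18, differed by −0.04 (−0.17 to 0.08). Aldh1l1, a folate enzyme used as a pan-astrocyte marker, came nearest to the threshold at 0.17 (0.03 to 0.31, adjusted p = 0.0971 by limma). With a trend on exonic gene length removed from each library it passed, with 0.20 and an adjusted p of 0.0440. Gja1 and Slc1a3 had −0.14 (−0.28 to 0.00) and −0.12 (−0.24 to 0.01). Gja1 lies 1.38 Mb from Fabp7 on chromosome 10 and S100b 18.5 Mb from it, and S100b differed by 0.12 (−0.04 to 0.28).

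Other genes of the lists around these markers can be set beside them. In KO sham mice, 6 of the 37 other astrocyte markers passed, 1 above and 5 below the WT sham level. Among all genes tested 15.4% passed (8.18% higher, 7.18% lower), so 6 of 37 in either direction is a share near the background. The higher one was Mlc1, an endfoot membrane protein, at 182 against 157 CPM in WT sham mice (log2 fold change 0.22, adjusted p = 0.0267 by limma). The lower ones included Apoe, the main lipid carrier made by astrocytes, at 1130 against 1523 CPM (−0.43, adjusted p = 0.000555). Hepacam, the cell adhesion protein that binds Mlc1, was also lower, at 99.5 against 131 CPM (−0.39, adjusted p = 0.000756), as were Id4, at 71.9 against 88.2 CPM (−0.29), and Scg3 (−0.26). Over the 37 genes the median was −0.02, equal to that of all genes to 2 decimals. Of 18 astroglial transcription factors, 1 was higher (Hopx) and 2 were lower (Sox2 and Nfix), also near the share of all genes. Sox2, a relative of Sox9 in the SOX family, was 45.4, 49.0, 51.5 and 45.7 CPM in KO sham mice, against 63.1, 53.9, 67.8, 68.3 and 65.5 CPM in WT sham mice (−0.41, adjusted p = 0.00166). As with Sox9, no KO sham mouse reached the lowest WT sham mouse. Markers of neurons also moved in this comparison. The summed level of 9 inhibitory neuron markers was 1285 to 1351 CPM in KO sham and 1042 to 1196 CPM in WT sham mice, with 3 of 9 genes higher and 0 lower, and that of 12 excitatory neuron markers was 4447 to 4961 CPM in KO sham and 5003 to 5620 CPM in WT sham mice, with 1 of 12 lower and 0 higher. Neither sum overlapped between the groups, but single genes weighed heavily in them. Camk2a, the excitatory marker that passed, was 2900 CPM in KO sham and 3357 CPM in WT sham mice, whereas Slc17a7 was 1129 and 1079 CPM. Cck, an inhibitory marker that passed, was 166 and 93.0 CPM. The median log2 fold change was −0.11 over the 12 excitatory and 0.23 over the 9 inhibitory markers. The part of these neuron markers in the values of the astrocyte genes was not tested.

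At the seizure threshold, none of the 10 genes passed between KO MEST and WT MEST mice by limma, against 9.92% of the 16061 genes tested. At an unadjusted p under 0.05 there were 4 of the 10, and edgeR and DESeq2 on the recovered reads also called 0. No gene of the 10 had groups that did not overlap, against 8.68% of all genes. Sox9 was nearest to the threshold, at 28.2 ± 3.20 CPM in KO MEST and 32.4 ± 1.97 CPM in WT MEST mice (log2 fold change −0.21, 95% interval −0.36 to −0.05, adjusted p = 0.0883). Slc1a2 followed with 2943 ± 231 and 3263 ± 170 CPM (−0.15, −0.27 to −0.03, adjusted p = 0.0931). Without KO MEST replicate 1, the KO MEST mouse with the highest Sox9, Sox9 passed (−0.27, adjusted p = 0.0277), and without KO MEST replicate 4, the one with the highest Slc1a2, Slc1a2 passed (−0.19, adjusted p = 0.0308).

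Gfap had a mean of 341 ± 189 CPM in KO MEST and 234 ± 30.2 CPM in WT MEST mice. The log2 fold change was 0.41, with an interval of −0.27 to 1.10 that includes no difference and more than a doubling. Without KO MEST replicate 2, the mouse with 670 CPM, the log2 fold change was 0.14 (adjusted p = 0.557 by limma). The intervals of the 9 other genes lay between −0.36 and 0.27. For Slc1a3, Gja1 and Aqp4 the log2 fold changes were −0.04 (−0.13 to 0.06), −0.04 (−0.16 to 0.09) and 0.03 (−0.15 to 0.21). In the lists beside them, 5 of 37 other astrocyte markers were lower in KO MEST mice and 0 were higher, with 12 at an unadjusted p under 0.05, against 4.27% lower and 5.65% higher among all genes. Slc39a12, a zinc transporter, was 60.9 against 73.0 CPM (−0.26, adjusted p = 0.00698 by limma), and Slc4a4, a bicarbonate transporter, was 161.1 against 201.5 CPM (−0.33, adjusted p = 0.00637). Of 18 astroglial transcription factors, 4 were lower (Id3, Sox2, Id1 and Hopx) and 0 higher, against those same shares of all genes. Sox2 was 56.8, 41.8, 41.4, 41.6 and 40.3 CPM in KO MEST mice, against 54.4, 56.7, 54.6, 53.9 and 54.4 CPM in WT MEST mice. Hopx had been higher in KO sham than in WT sham mice. Of 13 oligodendrocyte markers 8 were lower in KO MEST mice, and their summed level was 6681 to 7283 CPM in KO MEST and 7029 to 9388 CPM in WT MEST mice. Their part in the values of the astrocyte genes was not tested.

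**Figure D2:**
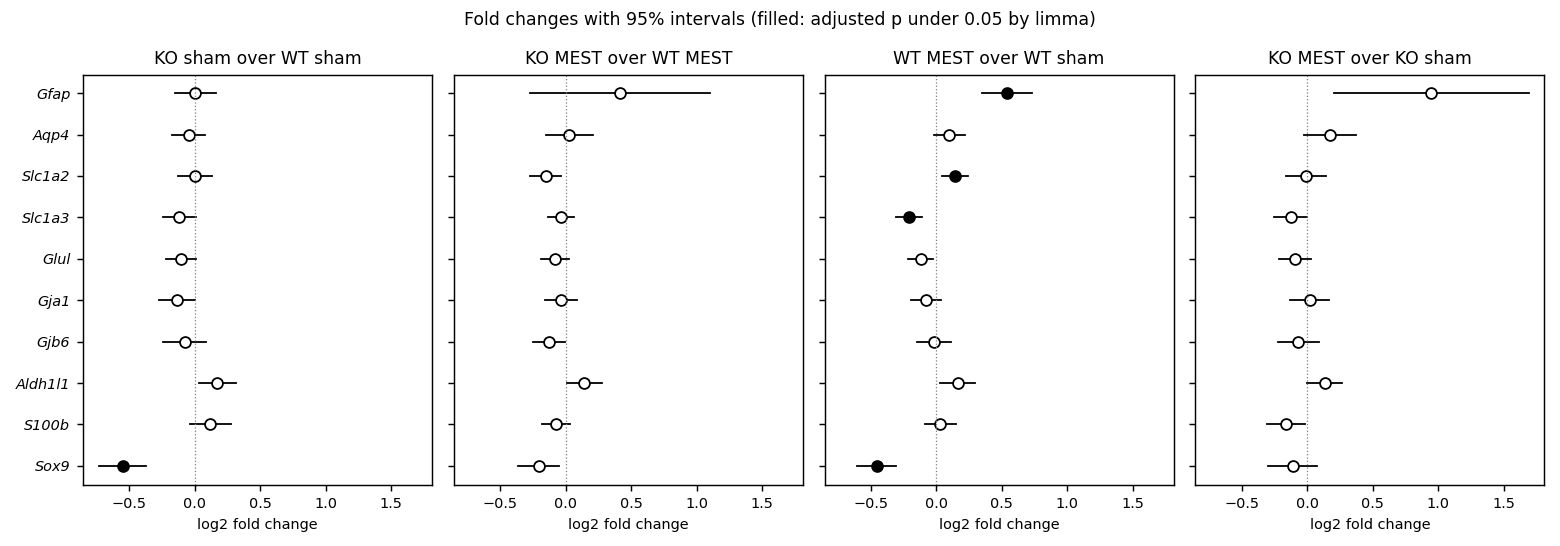
Log2 fold change (x axis) of each of the 10 genes (y axis) in 4 comparisons, as points with 95% intervals from limma. Filled points passed at an adjusted p under 0.05. They are Sox9 in KO sham over WT sham, and Gfap, Slc1a2, Slc1a3 and Sox9 in WT MEST over WT sham.

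The comparison of electroshock with sham handling in wild-type mice changed the astrocyte genes in both directions. In WT MEST relative to WT sham mice, Gfap and Slc1a2 were higher and Slc1a3 and Sox9 lower, and 6 genes did not pass, so 4 of 10 passed against 24.6% of the 16080 genes tested (12.3% in each direction). At an unadjusted p under 0.05 there were 6 of 10. Groups did not overlap for Gfap, Slc1a3 and Sox9, 3 of 10, against 16.7% of all genes. The median log2 fold change was 0.00 for the 10 genes and 0.00 for all genes. Inhibitory neuron markers summed to 1289 to 1398 CPM in WT MEST and 1042 to 1196 CPM in WT sham mice, with no overlap, and 4 of 9 were higher and 1 lower. Excitatory neuron markers summed to 4804 to 5017 CPM in WT MEST and 5003 to 5620 CPM in WT sham mice, with 2 of 12 higher and 3 lower. Their part in the values of the astrocyte genes was not tested. The same 5 WT sham libraries served as the reference for the sham genotype comparison and for this one.

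Gfap rose by 0.54 (SE 0.09, 0.35 to 0.73, a ratio of 1.45, adjusted p = 0.000435 by limma) in WT MEST mice. The call was lost when all 19 libraries were fitted together (adjusted p = 0.103), where KO MEST mice enter the estimate of spread. It held under the 21 other settings and left-out libraries. Sox9 was 0.46 lower (SE 0.07, −0.61 to −0.31, a ratio of 0.728, adjusted p = 7.72e-05 by limma), and passed under all 22 alternatives.

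Slc1a2 and Slc1a3 encode the astrocyte glutamate transporters GLT-1 and GLAST (chr2:102658659-102790784, plus strand, and chr15:8634124-8710764, minus strand). They changed in opposite directions. Slc1a2 was 3438, 3182, 3274, 3402 and 3020 CPM in WT MEST mice, against 2925, 2726, 2937, 3129 and 3077 CPM in WT sham mice. Slc1a3 was 660, 643, 664, 687 and 656 CPM in WT MEST mice, against 735, 712, 794, 836 and 756 CPM in WT sham mice. The Slc1a3 groups did not overlap, whereas WT MEST replicate 5 of Slc1a2 lay below 2 WT sham mice. Slc1a2 rose by 0.14 (0.04 to 0.24, adjusted p = 0.0300 by limma) and Slc1a3 fell by 0.21 (SE 0.05, −0.31 to −0.11, adjusted p = 0.0025).

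The Slc1a2 call was lost in 6 of the 10 fits that left out 1 library (without WT MEST replicate 1, 3 or 4, or WT sham replicate 1, 2 or 3), where the adjusted p reached at most 0.108. It was also lost with all 19 libraries fitted together (0.0842). Glul, the glutamine synthetase that detoxifies the glutamate taken up (chr1:153899944-153909723, plus strand), was 1806 ± 77.2 CPM in WT MEST and 1962 ± 108 CPM in WT sham mice (−0.12, −0.21 to −0.02, adjusted p = 0.0648). Without WT MEST replicate 3 it passed (adjusted p = 0.0481 by limma). Aldh1l1 had 60.5 ± 5.05 and 54.0 ± 3.56 CPM (0.16, 0.03 to 0.29, adjusted p = 0.0707) and passed without WT MEST replicate 4 or 5 (0.0362 and 0.0469) and with the length trend removed (0.0330). The gap junction genes Gja1 and Gjb6, connexin 43 and connexin 30, had log2 fold changes of −0.08 (−0.20 to 0.03) and −0.02 (−0.15 to 0.11). Aqp4 had 0.10 (−0.02 to 0.21) and S100b 0.03 (−0.09 to 0.15).

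Of the 29 reactive astrocyte genes, 26 were tested in WT mice and 3 were higher and 1 lower in WT MEST mice. Serpina3n, a secreted protease inhibitor that reactive astrocytes make, was 33.3, 33.6, 25.9, 28.6 and 30.8 CPM in WT MEST mice, against 22.5, 22.97, 22.7, 22.4 and 22.6 CPM in WT sham mice (log2 fold change 0.42, adjusted p = 0.000206 by limma). Hspb1, a small heat shock protein, was 8.17 ± 1.86 against 5.18 ± 1.38 CPM (0.65, adjusted p = 0.00578). Amigo2 was also higher and Nes lower. Vim, the filament protein that partners Gfap, differed by −0.02 (−0.17 to 0.12). Of 18 astroglial transcription factors, 6 were higher and 2 lower, with Hopx (0.48), Id3 (0.43), Hes5 (0.54) and Hey1 (0.27) higher, and Nfix (−0.35) and Sox2 (−0.21) lower. Of 37 other astrocyte markers 2 were higher, Gpr37l1 (0.26) and Mlc1 (0.21), and 9 were lower, among them Id4 (−0.36), Hepacam (−0.31), Sparcl1 (−0.22) and Scg3 (−0.28). The list's median was −0.03 and that of all genes was 0.00. Beside these counts, 12.3% of all genes tested were higher and 12.3% lower, and the 3 higher and 1 lower of 26 reactive genes are near or below that share.

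In knockout mice, 0 of the 10 genes passed between KO MEST and KO sham mice by limma, where 1.39% of the 16147 genes tested passed (0.904% higher, 0.489% lower). At an unadjusted p under 0.05 there were 3 of 10, edgeR called 0, and DESeq2 called 1, Gfap. Gfap was nearest to the threshold, with a log2 fold change of 0.95 (SE 0.32, 0.21 to 1.69, a ratio of 1.93, adjusted p = 0.181). All 5 KO MEST mice were above the 4 KO sham mice, as was the case for 1 of the 10 genes with groups that did not overlap, against 7.69% of all genes. Without KO MEST replicate 2 the fold change was smaller, 0.67, and passed (adjusted p = 0.0308). It also passed with DESeq2 (0.0399) and with all 19 libraries fitted together (0.0464).

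Slc1a3 had 647 ± 32.6 CPM in KO MEST and 707 ± 45.7 CPM in KO sham mice (−0.13, −0.25 to 0.00, adjusted p = 0.274). S100b, a calcium-binding protein (chr10:76253853-76261159, plus strand), had 152 ± 6.74 and 170 ± 17.4 CPM (−0.16, −0.31 to −0.01, adjusted p = 0.240). Sox9 had 28.2 ± 3.20 and 30.4 ± 2.60 CPM (−0.11, −0.30 to 0.08), and Slc1a2 had 2943 ± 231 and 2963 ± 271 CPM (−0.01, −0.16 to 0.15). Of 37 other astrocyte markers, Slc39a12 was lower, at 60.9 against 71.8 CPM (−0.24, adjusted p = 0.0486 by limma), and 0 were higher. Reactive astrocyte genes gave 0 calls among 27 tested, with 3 at an unadjusted p under 0.05, and Serpina3n stood at 0.79 (0.28 to 1.30, adjusted p = 0.123). Of 13 oligodendrocyte markers 5 were lower, and their summed level was 6681 to 7283 CPM in KO MEST and 7386 to 8046 CPM in KO sham mice, with no overlap. Its part in the values of the astrocyte genes was not tested.

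The change with electroshock was then compared between genotypes in 1 model of all 19 libraries. Sox9 was the only one of the 10 genes to pass, against 18.6% of the 16596 genes tested (9.65% higher, 8.95% lower). Its log2 fold change with electroshock was −0.11 in knockout and −0.46 in wild-type mice, a difference of 0.35 (SE 0.12, 0.10 to 0.59, adjusted p = 0.0391 by limma). That call was marginal. It was lost without filtering low genes (0.0587), with the length trend removed (0.0588), and in 11 of 19 fits that left out 1 library, namely without KO MEST 1, 3 or 5, KO sham 2 or 5, WT MEST 1, 4 or 5, or WT sham 3, 4 or 5 (0.0535 to 0.0914). The difference was positive in every one of the 30 alternatives (0.29 to 0.40). Outside the WT sham group, Sox9 was 24.1 to 35.1 CPM in all 14 mice.

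For the remaining 9 genes the difference did not pass. S100b was nearest, at −0.19 (−0.38 to −0.01, adjusted p = 0.150), and Slc1a2 had −0.15 (−0.33 to 0.03, adjusted p = 0.247). Slc1a2 passed with the length trend removed (−0.19, adjusted p = 0.0420 by limma) and without KO sham replicate 3 (−0.22, 0.0399). For Gfap the difference was 0.41, with an interval of −0.30 to 1.12, so the change with electroshock was not shown to differ between genotypes.

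Within groups, which mouse was high differed by gene, and the widest spread was that of Gfap in KO MEST mice. KO MEST replicate 2 was the highest of its group in 6 of the 10 genes (Gfap, Aqp4, Aldh1l1, Gja1, Gjb6 and S100b) and the lowest in 3 (Slc1a2, Slc1a3 and Sox9). Aqp4 was 161, 235, 172, 179 and 168 CPM in the 5 KO MEST mice, against 164, 160, 153 and 166 CPM in KO sham mice. The mouse with 235 CPM was the one with 670 CPM of Gfap. It also had 77.4 CPM of Serpina3n, against 36.1 to 47.5 CPM in the 4 other KO MEST mice, and 75.0 CPM of Vim, against 40.5 to 48.0 CPM. Of 22 reactive astrocyte genes with at least 1 CPM, 12 were highest in this mouse and 2 lowest, and of 37 other astrocyte markers 16 were highest and 4 lowest. Among 18 astroglial transcription factors 2 were highest and 6 lowest, and among 9 connexins and pannexins 1 was highest and 1 lowest. Markers of other cell types were counted in the same way. In this mouse 4 of 12 microglia markers were highest and 0 lowest, 4 of 12 leptomeningeal fibroblast markers highest and 1 lowest, 4 of 10 endothelial markers highest and 1 lowest, and 3 of 10 choroid plexus markers highest and 0 lowest. Of 12 excitatory neuron markers 0 were highest and 5 lowest, of 9 inhibitory neuron markers 1 was highest and 1 lowest, and of 13 oligodendrocyte markers 3 were highest and 5 lowest. The part of these cell types in the values of the astrocyte genes was not tested. This mouse was 1 of 5 in its group and was singled out by its Gfap value. The share of all genes that were highest or lowest in it was not counted, so these counts have no background beside them. WT sham replicate 4 was highest of its group in 9 of the 10 genes, with a sum of 7125 CPM against 6198 to 6683 CPM in the 4 other WT sham mice. KO sham replicate 3 was highest in 6 genes and lowest in Slc1a2. For these mice, too, the share of all genes was not counted.

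**Figure D3:**
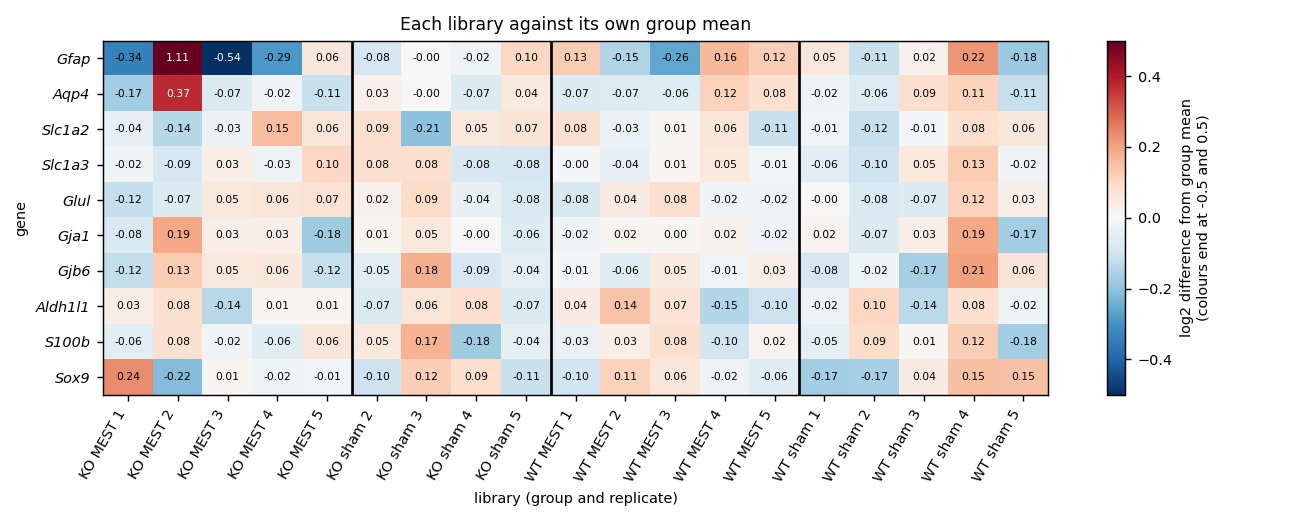
Log2 difference of each library (columns, by group and replicate) from its own group mean for each of the 10 genes (rows), with black lines between groups. KO MEST replicate 2 differs by 1.11 for Gfap and 0.37 for Aqp4, and WT sham replicate 4 is above its group mean for all 10 genes.

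Gfap had the widest range of group means, so the genes with the most similar values over the 19 libraries were sought for it. Among 13220 other genes with a mean of at least 2 CPM, the smallest root mean square differences from Gfap, in log2 units after subtracting each gene's mean, were those of Serpina3n (0.22), 6330403K07Rik (0.29), Serpinf1 (0.30), C4b (0.31) and Bmp3 (0.32). A gene with the same value in every library would have had 0.52. The 5 genes were chosen for values like those of Gfap, so being high in the same group and library follows from that choice. All 5 were highest in KO MEST mice, with Serpina3n at 47.9 CPM in KO MEST, 26.7 CPM in KO sham, 30.4 CPM in WT MEST and 22.6 CPM in WT sham mice. C4b, a complement component, was 31.1, 21.7, 24.9 and 22.8 CPM in those groups. KO MEST replicate 2, the library farthest from the mean for Gfap, had 40.9 CPM of C4b. For Gfap it lay 1.67 above the mean, against −0.58 to 0.62 in the other libraries, so this 1 mouse weighed heavily in the search. Without it the log2 change of Gfap from KO sham to KO MEST mice was 0.67, against 0.95 with it. The search was not repeated without this mouse.

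**Figure D4:**
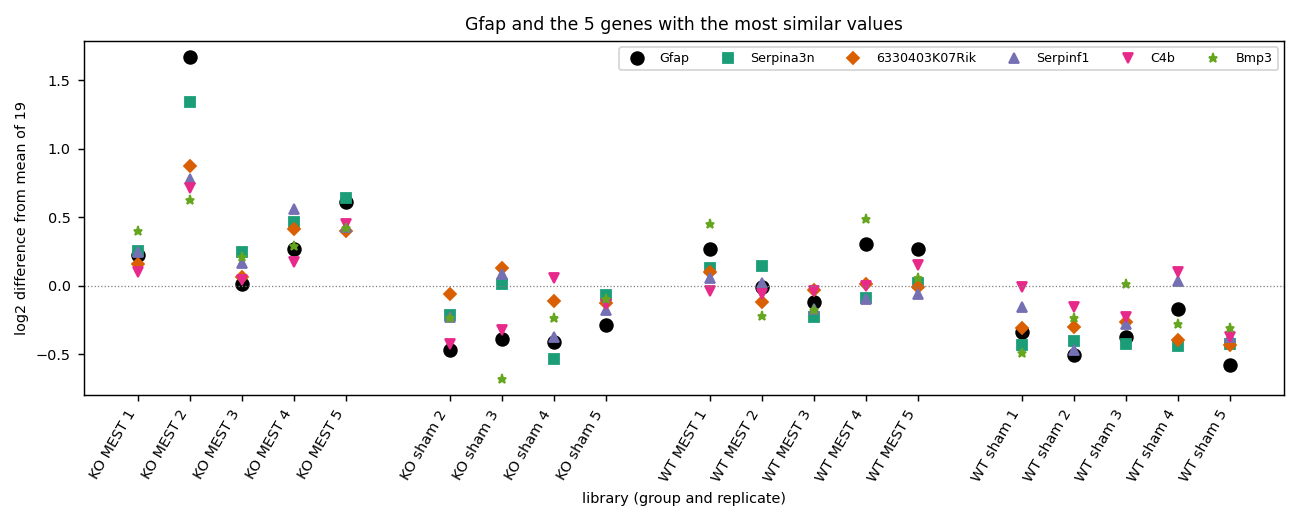
Log2 difference from the mean of all 19 libraries (y axis) for Gfap and the 5 most similar genes, by library (x axis). Gfap and Serpina3n are both highest in KO MEST replicate 2, with 670 and 77.4 CPM. The 5 genes were chosen for this likeness.

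The proximal promoters are shown for Gfap and Serpina3n, because their values were the most alike, and for Slc1a3. Slc1a3 passed in WT MEST over WT sham mice, and its promoter holds 1 of the motifs searched. Each sequence shown is the 250 bases before the RefSeq start site (GRCm38.p6), 5′ to 3′ in the direction of transcription. Gfap (chr11:102897201-102897450, minus strand) lies within an intron of a longer annotated Gfap transcript, and Serpina3n is at chr12:104406458-104406707 (plus strand) and Slc1a3 at chr15:8710808-8711057 (minus strand). Capitals mark a match to the STAT motif TTCNNNGAA.
Gfap: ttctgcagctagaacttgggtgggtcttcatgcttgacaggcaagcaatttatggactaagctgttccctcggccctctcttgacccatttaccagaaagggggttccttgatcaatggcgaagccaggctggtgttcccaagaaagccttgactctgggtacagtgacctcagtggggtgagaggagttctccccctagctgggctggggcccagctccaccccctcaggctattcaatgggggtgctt
Serpina3n: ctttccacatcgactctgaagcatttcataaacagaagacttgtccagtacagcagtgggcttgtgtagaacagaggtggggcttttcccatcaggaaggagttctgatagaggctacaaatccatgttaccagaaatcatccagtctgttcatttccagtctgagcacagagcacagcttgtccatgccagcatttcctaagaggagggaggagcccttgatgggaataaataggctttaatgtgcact
Slc1a3: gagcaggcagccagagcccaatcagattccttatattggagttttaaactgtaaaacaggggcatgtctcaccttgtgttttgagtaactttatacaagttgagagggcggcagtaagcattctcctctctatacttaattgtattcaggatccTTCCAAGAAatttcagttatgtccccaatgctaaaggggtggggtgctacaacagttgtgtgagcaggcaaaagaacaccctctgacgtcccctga

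The STAT motif was found in Slc1a3 at positions −96 to −88 from the start, and in 7.02% of the 32851 promoters of the table. The AP-1 motif TGACTCA was found in Gja1 alone among the members, against 4.46% of promoters. In Gja1, whose promoter is not shown, it reads TGAGTCA in the direction of transcription, at positions −19 to −13. The SOX motifs ACAAAG and ACAATG, present in 16.5% and 10.7% of promoters, were found in none of the 8 members that have an entry. Both strands were searched, and no match overlapped another. These matches describe the letters in the window, and the lack of a match says only that those letters are not in it.

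Read sharing could affect a few members. Of the 100-base windows along the longest transcript, 5.99% of Aldh1l1, 2.75% of Glul and 0.618% of Slc1a2 also occur in another annotated gene (Gm15756, Glns-ps1 with Teddm2, and Gm13872), and none do for the 7 others. Exons of Aldh1l1 overlap other genes over 13.4% of their length, those of Glul over 3.49% and those of Slc1a2 over 1.44%. Libraries were made with a kit that marks strand, and whether counting used it is not given in the sources used here.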

How the data were processed

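Poly-A RNA libraries from 19 mice were sequenced by the authors. Per the labels, reads were handled with bcl2fastq and Trimmomatic 0.39, aligned to mm10 by HISAT2 2.2.1, and counted by featureCounts of Subread 2.0.3 before normalization in DESeq2 1.36.0. In 2 tables, 1 per genotype, the authors deposited a normalized signal for each gene and library (read count over a DESeq2 size factor). Their own fold changes and p-values stand beside it and were not used. Division by the step of a library gave whole reads, within 0.01, for 100% of values. Of 24421 symbols, 27 that had become dates (at most 0.384% of a library) were dropped, leaving 24394. All 19 libraries were assigned to groups by the labels.

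CPM were computed from each library's total with a TMM factor over the 19 libraries. A gene entered a test if it had 0.2 CPM or more in at least the number of libraries of the smaller group. Tests used limma 3.58.1 (R 4.3.3, trend and robust, two-sided) on log2(CPM + 0.1), a scale that understates changes of low genes, in the libraries of the 2 groups compared. The threshold was an adjusted p (Benjamini-Hochberg, all genes) of 0.05. The difference of seizure effects used all 19 libraries and 4 group means. Alternatives were DESeq2 1.42.0 and edgeR 4.0.16 on recovered reads, other scalings, pseudocounts (0.5 and 1) and filters (none and 1 CPM), all libraries in 1 fit, the replicate number as a block, removal of a loess trend on exonic length, and each library left out. Code was tested on simulated data. The 10 genes were named in each comparison, with Fabp7 as the check of the knockout. Of the 14 other gene lists, up to 4 genes in each direction with the smallest adjusted p were named, and genes outside that rule were chosen after their values were seen. For the gene with the widest range of group means, the 5 most similar genes were named. Members, lists and motifs were chosen with earlier results of these data known.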

Additional observations from a re-analysis of the deposited data

Results flagged for a closer look

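Among the 40 combinations of gene and group examined for a library far from the others, 4 had one, where chance gives about 1 in 20. Gfap stood at 670 CPM in KO MEST replicate 2, against 212 to 322 CPM in the 4 other KO MEST mice. Aqp4 was 235 CPM in the same mouse, against 161 to 179 CPM in the others. In KO sham replicate 3, Slc1a2 was 2559 CPM, against 3062 to 3133 CPM in the 3 other KO sham mice, and Gjb6 was 69.0 CPM, against 57.3 to 58.9 CPM.

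In the fit of all 19 libraries, the change of Sox9 with electroshock differed between genotypes, by 0.35 on the log2 scale for knockout minus wild-type mice (adjusted p = 0.0391 by limma). The call was lost in 14 of 30 alternatives, with an adjusted p of at most 0.0914.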

How the results depend on the processing

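Of 1160 alternative values for the 10 genes in 5 comparisons, 1086 kept direction and side of the threshold, 23 lost the call, 14 gained it and 37 changed sign. Of those 37, in 13 results, 0 passed the threshold and none of the 13 had been called, and their log2 values were at most 0.08 in size. In KO sham over WT sham mice, Slc1a2 became 0.0062 with DESeq2, 0.0024 with edgeR, 0.081 with the length trend removed, 0.071 with that and the replicate block, 0.0061 without TMM and 0.0032 with median-of-ratios factors. Gfap became −0.00184 with edgeR, and Aqp4 became 0.012 with the length trend removed and 0.00586 with that and the block. S100b in WT MEST over WT sham mice became −0.023 with the length trend removed, with or without the block. In KO MEST over KO sham mice Gja1 became −0.00484 with the length trend removed and Slc1a2 0.0013 with the replicate block. Leaving out 1 library, the ranges that crossed 0 were, in KO sham over WT sham mice, −0.043 to 0.059 for Gfap and −0.030 to 0.068 for Slc1a2. In KO MEST over WT MEST mice they were −0.065 to 0.072 for Aqp4 and −0.085 to 0.0079 for Gja1. In WT MEST over WT sham mice they were −0.062 to 0.031 for Gjb6 and −0.014 to 0.061 for S100b. In KO MEST over KO sham mice they were −0.078 to 0.027 for Slc1a2 and −0.030 to 0.063 for Gja1. For the difference of the seizure effects they were −0.020 to 0.12 for Aqp4, −0.064 to 0.0077 for Aldh1l1, −0.10 to 0.013 for Gjb6 and −0.0036 to 0.056 for Glul. None of 80 group levels moved by over 1 SD under another scaling. With the length trend removed, 2 of the 10 genes passed in KO sham over WT sham mice. With all 19 libraries fitted together, 2 passed in WT MEST over WT sham mice. In KO MEST over KO sham mice 1 of the 10 passed with DESeq2 and 1 with all libraries, and the count of all genes, 225, became 915 with DESeq2, 531 with all libraries, 341 with the length trend removed, 367 with that and the replicate block, and 73 without a filter. For the difference of the seizure effects 0 of the 10 passed without a filter. Leaving out 1 library gave 799 to 1936 genes called in KO MEST over WT MEST mice (0 to 1 of the 10), 15 to 440 in KO MEST over KO sham mice (0 to 1 of the 10), and 0 to 2 of the 10 for the difference of the seizure effects. The causes were not tested.

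The replicate numbers were not taken to pair the libraries. Of 18 pairs of libraries with the same number, 1 had a correlation of deviations over 0.1 (replicate 3 of KO MEST and KO sham, 0.26), the 17 others had −0.06 to 0.09, and 3 of the 18 correlated best with their own number. KO sham has no replicate 1. With the replicate block, 1822 genes passed in KO sham over WT sham, 1157 in KO MEST over WT MEST, 3476 in WT MEST over WT sham, 154 in KO MEST over KO sham and 2933 for the difference of the seizure effects. Slc1a2 in wild-type mice then missed the threshold (adjusted p = 0.0608 by limma), as did Sox9 for the difference with the length trend also removed (0.0652).

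Limits are 4 or 5 mice per group, a block of mixed tissue, age and depth that differ between groups, and a number of shocks per mouse that is not given. Depth does not limit the 10 genes, each with at least 928 reads in every library.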

Other observations

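Other genes of astroglial lists also differed between genotypes in their change with electroshock, as knockout minus wild-type log2 values by limma. Of 11 endfoot and water channel partners 2 were higher and 2 lower, with Hepacam at 0.43 (adjusted p = 0.000817) and Agrn at 0.32 (0.0363), and Mlc1 at −0.29 (0.0191) among the lower. Of 14 glutamate and glutamine genes, Atp1b2, a sodium pump subunit, was at 0.28 (0.0149), and Glud1, glutamate dehydrogenase, at −0.37 (0.000286) and Slc38a2, a glutamine transporter, at −0.29 (0.00637). Of 10 connexin and pannexin genes, Gjc3 (−0.40, 0.00629) and Panx1 (−0.44, 0.00765) were lower. Over all genes tested, 9.65% were higher and 8.95% lower. From KO sham to KO MEST mice, the log2 change was 0.13 for Hepacam, 0.35 for Agrn, −0.08 for Mlc1 and 0.20 for Atp1b2. It was −0.09 for Glud1, −0.02 for Slc38a2, −0.28 for Gjc3 and 0.0045 for Panx1. Of these, Agrn and Gjc3 passed by limma. Panx1 was 15.8 CPM in KO MEST and 15.7 CPM in KO sham, against 11.3 CPM in WT sham mice. Each difference also uses the WT sham mice, so it does not measure the knockout response alone.

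Hepacam was 107, 114, 102, 107 and 114 CPM in KO MEST mice, against 103, 105, 96.6 and 93.8 CPM in KO sham mice, and 103, 113, 115, 96.1 and 102 CPM in WT MEST mice, against 121, 120, 130, 141 and 141 CPM in WT sham mice. As with Sox9, the WT sham mice were the group that stood apart.

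Kcnj16, a potassium channel subunit, was lower in KO sham than in WT sham mice (28.8 against 40.7 CPM, −0.50, adjusted p = 0.000755 by limma) and in KO MEST than in WT MEST mice (28.2 against 34.8 CPM, −0.31, 0.0308). Of the 14 glutamate and glutamine genes, it was the 1 lower in KO sham mice, and Glud1 was the 1 higher (0.23, adjusted p = 0.0110 by limma). Their median was 0.08. In KO MEST mice 2 were lower, Kcnj16 and Glud1, and 0 higher. Of all genes, 7.18% were lower in KO sham and 4.27% in KO MEST mice.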
